A study of Mus musculus with 12 samples.

Results

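The proteasome is the protease that degrades ubiquitin-tagged proteins in the cytosol and nucleus. Its genes were taken here by name: every symbol that starts with Psma, Psmb, Psmc, Psmd, Psme or Psmg followed by a digit, and Pomp, with a level of at least 1 RPKM in at least 3 of the 12 libraries. RPKM is the number of reads on a gene divided by its length and by the library total. Of the 21671 genes in the table, 49 carried such a name and 48 passed the filter. The gene that did not pass was Psmb11, the thymus-specific catalytic subunit, at 0.158 to 0.296 RPKM; the lowest mean inside the filter was 7.39 RPKM, for Psmd9. Of the 48 genes, 47 encode proteasome subunits, activators or assembly chaperones. The other, Psmc3ip, encodes a meiotic recombination factor and shares only its name; it is counted with the 48 and described apart.

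The study asked how the activity of MYC alters the response of B-lymphoid cells to an inhibitor of mitochondrial complex I. FL5.12, a prolymphocytic line from BALB/c mice that grows with interleukin-3, had been transduced with a retrovirus that drives constitutive expression of MycER, and a resistant pool, not a clone, was used. MycER is a MYC fusion that becomes active with 4-hydroxytamoxifen (OHT). RNA was sequenced after ribosomal depletion from 4 conditions with 3 libraries each, all of cells that carry MycER. Untreated cells had neither agent. The OHT group had 100 nM OHT for 72 h, of which the first 48 h were priming. The IACS group had IACS-010759, the complex I inhibitor, at 135 nM for 24 h. The OHT_IACS group was primed with OHT for 48 h and then had both agents for 24 h. The methods of the study put cells into low-glucose medium before work with IACS-010759. There was no library of OHT-treated cells without MycER and no vehicle named for the untreated cells, so that OHT itself and MycER activity cannot be told apart.

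The methods of the study call the 3 libraries of a condition biological replicates, but no label says whether they were separate cultures, so the p-values below measure the spread between samples. Library totals, recovered from the spacing of the RPKM values, ran from 10376530 to 14550158 reads, and each member had from 126 reads (Psmd10, IACS replicate 3) to 2455 reads (Psmd2, OHT replicate 2) in a library. The spread between replicates was above counting noise for every pair of replicates among genes of low read density (under 0.1 reads per base), with a chi-square per gene of 1.08 to 1.88. Among genes of at least 0.4 reads per base, where 29 of the 48 members lie, it ran from 0.644 to 4.25 and was under 1 in 6 of 12 pairs. Levels below are RPKM as deposited, and the fit scaled the libraries first.

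The core particle of the proteasome is a barrel of stacked rings: the alpha rings gate the entrance, and the beta rings hold the catalytic subunits Psmb5, Psmb6 and Psmb7. Under interferon signalling, and constitutively in many lymphoid cells, Psmb8, Psmb9 and Psmb10 take the place of these subunits and form the immunoproteasome, which shapes the peptides presented on MHC class I. The regulatory particle binds the core with a ring of ATPases, the Psmc subunits, and with Psmd subunits that recognise, deubiquitinate and position the substrate. Assembly chaperones build both parts and leave the mature complex, while the Psme activators open the core without ubiquitin recognition. When proteasome activity falls short, the transcription factor Nfe2l1 is known to raise the subunit genes together.

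The label calls the line prolymphocytic. Of 14 B-lineage genes, 7 were at 0 in every library, Vpreb2, Pax5, Rag1 and Il7r among them, where a count of 0 in a single library allows a true mean of up to 3 reads, counting error only. Cd79a and Cd79b passed the filter, and Cd79b was the most abundant gene of the list at a mean of 2.22 RPKM. The list summed to 3.88, 4.07 and 4.64 RPKM in untreated cells, 2.82, 2.8 and 2.71 with OHT, 5.06, 4.69 and 3.92 with IACS, and 2.26, 2.91 and 2.12 with both. The receptor for interleukin-3 was well expressed, with Csf2rb at a mean of 44.2 RPKM. Other lineages gave low to moderate levels: Mpo, a granule enzyme of myeloid cells, was at a mean of 10.9 RPKM, Klf1, an erythroid transcription factor, at 8.72, Cd3g at 1.63, and the fibroblast gene Col1a1 at 0.219. The 6 myeloid genes in the table summed to 26, 25.6 and 23 RPKM in untreated cells, 14.4, 16.5 and 15.9 with OHT, 28.9, 30.7 and 25.3 with IACS, and 15.6, 16.4 and 16 with both. The myeloid sum, like that of the B-lineage genes, was lower in every library with OHT than in every library without it. Of the tested B-lineage genes, Cd79b was at -1.10 ± 0.17 with OHT, while Cd79a was at 0.11 ± 0.27 and was not called. Also lower in every library with OHT was the sum of 5 T cell genes, at 2.18, 2.56 and 2.15 RPKM in untreated cells, 1.4, 1.23 and 1.3 with OHT, 2.51, 2.53 and 2.46 with IACS, and 1.86, 1.87 and 1.98 with both; Cd3e was at 0 throughout. The 3 erythroid genes in the table summed to 14, 13.8 and 14.6 RPKM in untreated cells, 10.3, 11.9 and 10.8 with OHT, 8.9, 8.6 and 7.81 with IACS, and 7.32, 7.48 and 6.85 with both. That sum was lower in every library with IACS than in every library without it, and most of it is Klf1, at -0.95 ± 0.06 with IACS (adjusted p = 2.19e-07). The other tested erythroid gene, Hbb-b1, was called higher, at 0.67 ± 0.18 with IACS and 0.68 ± 0.18 with OHT. Both calls were lost by voom, and that with IACS also without the libraries of lowest total and without 3 single libraries. Hbb-b1 had 0.712 to 0.982 RPKM in untreated cells and 1.16 to 2.4 in the treated libraries. It passed the filter only through the treated libraries, so no conclusion is drawn from its rise. Elane and Csf1r, defining genes of the myeloid list, were at most at 0.202 RPKM, and the part of these marker shifts in the results was not tested. In these bulk samples, fewer cells of a type and less RNA per cell cannot be told apart.

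Genes that report the treatments showed large differences in the fit described here, limma on log2(RPKM + 0.1). With OHT, the log2 fold change against untreated cells was 1.38 ± 0.06 (SE) for St6galnac4 and 0.64 ± 0.07 for Rrp9, both induced by MYC in earlier work. Myc itself was lower by the same comparison, at -0.81 ± 0.05; whether reads of the MycER transcript count toward it is not given in the labels. With IACS, the integrated stress response genes Trib3 (1.96 ± 0.10), Atf5 (1.75 ± 0.13) and Ddit3 (1.17 ± 0.07) were higher, and Asns was higher at 0.52 ± 0.07. These genes were also called with OHT alone, with Trib3 (0.68 ± 0.10), Asns (0.33 ± 0.07) and Ddit3 (0.22 ± 0.07) higher and Atf5 (-0.40 ± 0.13) lower. With OHT the call of Atf5 was lost under 5 of 12 settings and 3 of 12 left-out libraries, and that of Ddit3 under 2 settings and 1 left-out library. Chac1, another gene of that response, had too few reads to be tested.

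The proteasome genes were among the more abundant genes of these cells. The median over the 48 members of the mean level was 35.9 RPKM, beside 9.09 RPKM over the 9745 genes tested. Of the members, 45 lay above that median of all genes and 26 lay above 35.3 RPKM, where the top 10% of all genes starts. Psmb4, a structural subunit of the beta ring, had the highest mean level at 86.8 RPKM, followed by the alpha subunits Psma7 (66.3) and Psma4 (62.7) and the ATPase Psmc3 (61). The lowest means were those of Psme4 (7.6), a large activator, Psmd11 (7.48), a lid subunit, and Psmd9 (7.39), a chaperone of the base. Subunits that occur in equal numbers in the complex differed in RPKM: Psma1 to Psma7 ran from 33.8 to 66.3 RPKM and the structural beta subunits from 18.8 to 86.8. Psma8, an alternative to Psma7 best known from the testis, was at a mean of 12 RPKM. The immunoproteasome was expressed at baseline: the untreated mean was 49.2 ± 0.54 RPKM (SD, n = 3) for Psmb8, 23.3 ± 1.12 for Psmb9 and 36.7 ± 1.63 for Psmb10, beside 48.8 ± 1.03 for Psmb5, 54 ± 3.59 for Psmb6 and 15.2 ± 0.363 for Psmb7.

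Library totals differed between the conditions, so that OHT and the total cannot be fully told apart. The totals were 13375674, 14550158 and 14281395 in untreated cells and 10376530, 13956222 and 10770476 with OHT. They were 13076509, 13729131 and 11133789 with IACS, and 11913079, 11804978 and 11792608 with both. Within conditions, reads on a member grew less than in proportion to the total: the median slope of log2 reads on log2 total was 0.67 over the members and 1.22 over all genes tested, where 1 would be proportional. The shortfall was shared by other abundant genes. Of the members, 29 had at least 0.4 reads per base, with a median slope of 0.60, beside 0.67 over the 1191 genes of that density, and the 8 subunits of the CCT chaperonin had 0.32. Psma2 had a slope of 0.23 and Psmb4 of 0.42, while Psmd7 had 0.98 and Psmb10 1.06. An abundant gene with a low slope therefore has a higher RPKM in a smaller library. The cause of the low slopes was not tested. OHT replicate 2 had the highest total of its group and also differed most from its replicates. Among genes of at least 0.4 reads per base, its chi-square per gene was 4.25 against replicate 1 and 2.39 against replicate 3. That between OHT replicates 1 and 3 was 1.32. Within OHT the total and other differences of replicate 2 cannot be told apart.

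**Figure D1:**
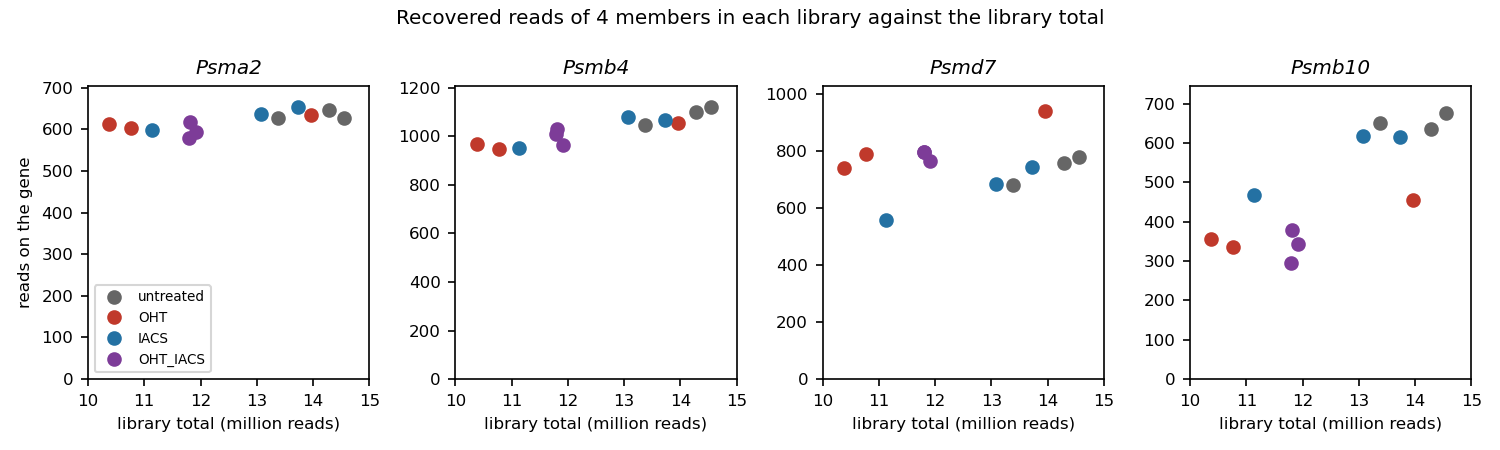
Reads on Psma2, Psmb4, Psmd7 and Psmb10 in each of the 12 libraries (vertical axis, starting at 0) against the library total (horizontal axis), with colours for the 4 conditions. Reads on Psma2 changed little with the total (579 to 654 reads), while Psmb10 had 296 to 456 reads in the libraries with OHT and 469 to 677 in those without.

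Between OHT and untreated cells, the immunoproteasome subunits fell while some subunits of the regulatory particle and some assembly chaperones rose. Of the 48 members, 17 were higher (35.4%), where 18.2% of all genes tested were higher, and 4 were lower (8.33%), where 18.2% of all genes were lower. The median log2 fold change was 0.16 over the members and 0.01 over all genes. By count of libraries, 17 members were higher in all 3 OHT libraries than in any untreated library, beside 22.5% of all genes, and 5 were lower, beside 23.5%. The rise was uneven among libraries. Relative to the untreated mean, the median over the members was 0.26 in OHT replicate 1, 0.00 in replicate 2 and 0.20 in replicate 3 on the log2 scale; replicates 1 and 3 had the lowest totals of the 12 libraries. Members above the untreated mean numbered 42, 24 and 41 in the same order. With the library total as a covariate, 5 members were higher and 6 lower, beside 1195 and 1156 of the 9745 genes tested. The median over the members was 0.03 in that fit. Without the 3 libraries with the lowest totals (OHT replicates 1 and 3 and IACS replicate 3), a setting chosen after seeing the data, the median was 0.00. That setting leaves OHT replicate 2 as the only OHT library, with its spread taken from the other groups, so its calls are those of a single sample.

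**Figure D2:**
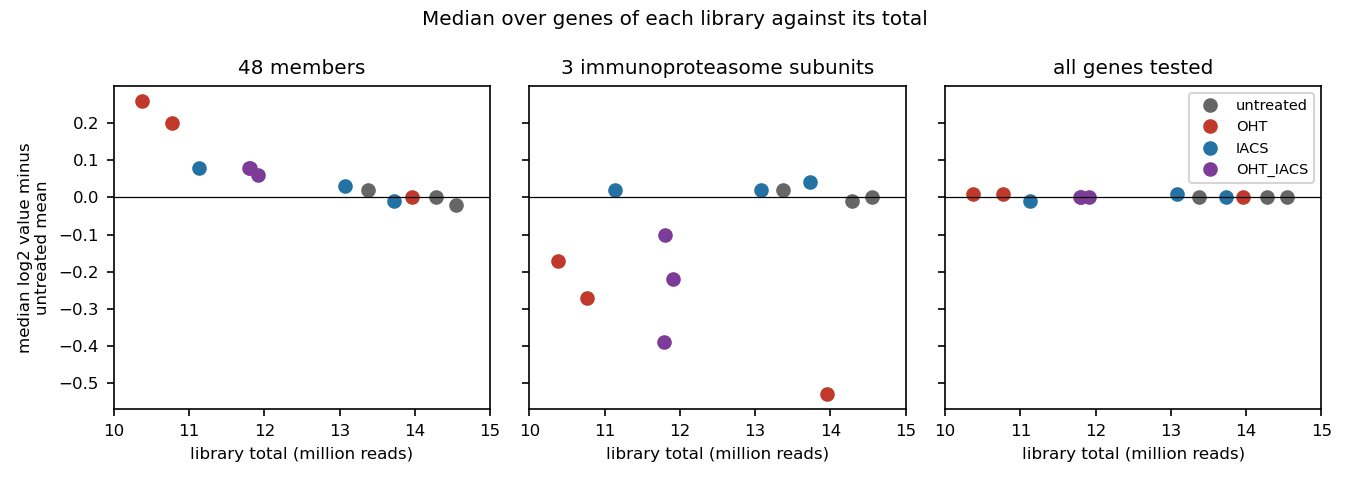
Median of log2 values minus the untreated mean in each library (vertical axis) against the library total (horizontal axis), for the 48 members, the 3 immunoproteasome subunits and all genes tested. The median over the members was 0.26 and 0.20 in the OHT libraries with the lowest totals and 0.00 in the other OHT library, while the immunoproteasome median was below 0 in all 6 libraries with OHT.

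The constitutive core showed the same unevenness among the OHT libraries. Of 15 alpha and beta subunits, with the alternative subunit Psma8 counted among them, 6 were higher with OHT, beside 18.2% of all genes. They were Psma3 (0.27 ± 0.08), Psma5 (0.28 ± 0.09), Psma6 (0.20 ± 0.07), the structural subunits Psmb1 (0.21 ± 0.07) and Psmb2 (0.22 ± 0.06), and Psmb7, the trypsin-like catalytic subunit (0.29 ± 0.08). Psma8 was at -0.17 ± 0.07, with every OHT library below the untreated ones, and was not called (limma, adjusted p = 0.0524). The median over the 15 was 0.32 in OHT replicate 1, -0.01 in replicate 2 and 0.26 in replicate 3. By limma with the total as a covariate, 0 of the 15 were called, with 1 at an unadjusted p under 0.05, and without the 3 libraries of lowest total 0 were called, with 2 at that p. By voom on the recovered reads, in all libraries, 8 were higher, beside 2002 of the 9745 genes tested. The RPKM of Psma2 was 49.6, 45.5 and 47.9 in untreated cells and 62.3, 47.9 and 59.1 with OHT. Its level in OHT replicate 2 lay within the untreated range, and its log2 fold change, 0.21 ± 0.10, was not called (adjusted p = 0.0957). The RPKM of Psmb7 was 15.6, 14.9 and 15.2 in untreated cells and 20.8, 16.3 and 19.7 with OHT, so that the groups did not overlap although OHT replicate 2 lay close to the untreated libraries.

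The regulatory particle held the member with the largest rise. Psmd7 pairs with the deubiquitinating subunit Psmd14 in the lid. The RPKM of Psmd7 was 22.3, 23.5 and 23.3 in untreated cells and 31.3, 29.6 and 32.1 with OHT. All 3 OHT libraries lay well above the untreated libraries, and the log2 fold change was 0.41 ± 0.05 (limma, adjusted p = 3.18e-05), a fold of 1.32. Psmd14 itself was at 0.18 ± 0.07 and was not called (adjusted p = 0.0596). The RPKM of Psmc2, an ATPase of the base, was 26.6, 26.5 and 26.8 in untreated cells and 31.3, 30.8 and 33.5 with OHT. Its groups did not overlap either, and its log2 fold change was 0.24 ± 0.05 (adjusted p = 0.00135). By limma it was the only ATPase called of 6, where voom called 3. Psmc1, Psmc3, Psmc4, Psmc5 and Psmc6 were at 0.05 to 0.21. Over the 9745 genes tested, limma called 1769 higher and voom 2002. Of the 11 non-ATPase subunits, 6 rose by limma, where voom called 9 higher. Beside Psmd7 the 6 were Psmd2 (0.18 ± 0.06), a scaffold of the base, and the lid subunits Psmd3 (0.15 ± 0.04), Psmd6 (0.21 ± 0.07), Psmd11 (0.18 ± 0.06) and Psmd12 (0.18 ± 0.04). With the total as a covariate, only Psmd7 (0.36 ± 0.05), Psmd11 (0.26 ± 0.07) and Psmd12 (0.16 ± 0.04) of the 11 were called higher; Psmd2, Psmd3 and Psmd6 were at 0.07, 0.13 and 0.06 and were not called. The calls of Psmd7 and Psmc2 held under every alternative tried and without any 1 library.

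The chaperones that build the core rose in part. Psmg1 and Psmg2 form a dimer that starts the alpha ring, Psmg3 and Psmg4 a dimer that orders it, and Pomp guides the beta ring and is degraded by the finished core. The RPKM of Psmg3 was 43.8, 40.2 and 40.1 in untreated cells and 52.8, 48.4 and 54.2 with OHT. The OHT libraries were all above the untreated ones, with a log2 fold change of 0.30 ± 0.07 (adjusted p = 0.00491), which held under every alternative and without any 1 library. The RPKM of Psmg2 was 16.6, 17 and 17 in untreated cells and 20, 19.2 and 21.6 with OHT. Its groups were apart by 0.24 ± 0.05 on the log2 scale (adjusted p = 0.00287), and the call was lost with the total as a covariate and without the libraries of lowest total. Psmg1 (0.16 ± 0.06), Psmg4 (0.15 ± 0.07) and Pomp (0.14 ± 0.08) were not called. The chaperones of the base, Psmd5, Psmd9 and Psmd10, were at -0.05, 0.11 and 0.09 and none was called by limma; 0 of the 3 had an unadjusted p under 0.05, and voom called 0. With the total as a covariate Psmd5 was called lower, at -0.20 ± 0.05.

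The promoter of Psmg3 is shown since this chaperone rose with OHT in both backgrounds, and that of Psmd12 since this lid subunit rose with OHT and fell when the inhibitor was added to OHT. They are RefSeq promoters of build GRCm38.p6, running from 250 bases before to 50 after the start, as are all promoters here: chr5:139826845-139827144 on the minus strand and chr11:107479278-107479577 on the plus strand, both written 5′ to 3′ along the gene. Capitals mark CCGGAAG, the ETS-type motif, and in Psmd12 also TGACNNNGC, the core of the antioxidant response element, each on either strand. A match is a description of letters only.
Psmg3: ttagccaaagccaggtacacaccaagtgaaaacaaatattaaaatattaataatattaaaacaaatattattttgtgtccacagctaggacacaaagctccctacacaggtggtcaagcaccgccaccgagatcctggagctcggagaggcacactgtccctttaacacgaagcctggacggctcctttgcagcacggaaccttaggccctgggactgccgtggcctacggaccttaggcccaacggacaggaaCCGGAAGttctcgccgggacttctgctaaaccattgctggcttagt
Psmd12: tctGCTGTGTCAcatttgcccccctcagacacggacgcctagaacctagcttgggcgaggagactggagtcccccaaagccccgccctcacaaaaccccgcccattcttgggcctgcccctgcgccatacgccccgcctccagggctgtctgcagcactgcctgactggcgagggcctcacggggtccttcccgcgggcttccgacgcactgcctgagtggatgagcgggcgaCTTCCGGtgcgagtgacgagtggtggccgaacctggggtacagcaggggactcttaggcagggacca

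The immunoproteasome went the other way. All 3 subunits fell with OHT, and they were the only proteasome genes called lower. The RPKM of Psmb10, the trypsin-like subunit that replaces Psmb7, was 38.3, 36.6 and 35.1 in untreated cells and 27.1, 25.7 and 24.6 with OHT. No OHT library reached the lowest untreated library, and the log2 fold change was -0.53 ± 0.08 (limma, adjusted p = 1.37e-04), a fold of 0.693. The RPKM of Psmb8, which replaces the chymotrypsin-like Psmb5, was 49.6, 48.6 and 49.4 in untreated cells and 43.1, 39.1 and 42.1 with OHT. The groups were again apart, at -0.27 ± 0.07 (adjusted p = 0.00972). The RPKM of Psmb9, which replaces the caspase-like Psmb6, was 22.1, 24.3 and 23.5 in untreated cells and 21.8, 16.6 and 20.6 with OHT. OHT replicate 1 lay just under untreated replicate 1, and the log2 fold change was -0.27 ± 0.09 (adjusted p = 0.0281); the call was lost without a filter, with only the compared groups in the fit, and without untreated replicate 2, untreated replicate 3 or OHT replicate 2. With the library total as a covariate the 3 subunits were called lower, at -0.55, -0.36 and -0.43 for Psmb10, Psmb8 and Psmb9. In OHT replicate 2 alone, against untreated cells, the values were -0.55, -0.37 and -0.52.

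Each subunit was also set against the constitutive subunit that it replaces. The log2 ratio of Psmb10 to Psmb7 was 1.29, 1.30 and 1.20 in untreated cells and 0.38, 0.65 and 0.32 with OHT, a difference of -0.81. The ratio of Psmb8 to Psmb5 was 0.01, 0.03 and -0.00 in untreated cells and -0.39, -0.33 and -0.45 with OHT, a difference of -0.40. The ratio of Psmb9 to Psmb6 was -1.39, -1.07 and -1.16 in untreated cells and -1.57, -1.72 and -1.64 with OHT, a difference of -0.43. No OHT library overlapped the untreated libraries in any of the 3 ratios, and each gave an exact two-sided permutation p of 0.10, the smallest that 3 against 3 allows (adjusted p = 0.13 over 12 tests). The design cannot reach 0.05 by that test. These ratios also hold the higher levels of the constitutive subunits in the OHT libraries of low total: with the total as a covariate, Psmb7, Psmb5 and Psmb6 were at 0.06, -0.00 and -0.02, and none was called.

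**Figure D3:**
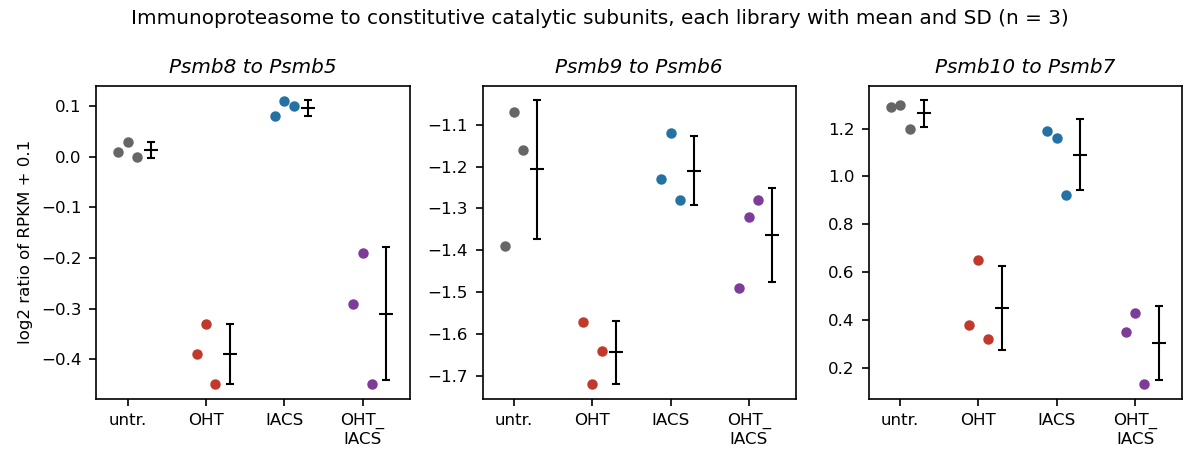
Log2 ratio of RPKM + 0.1 of each immunoproteasome subunit to the constitutive subunit it replaces, in each library (points) with the mean and SD of 3 libraries (bars), by condition. For Psmb8 to Psmb5 and Psmb10 to Psmb7, the 6 libraries with OHT lie below the 6 without it.

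The promoters of the 3 immunoproteasome genes are shown because these genes fell together with OHT. Psmb8 (chr17:34197945-34198244, plus strand) and Psmb9 (chr17:34187281-34187580, minus strand) lie in the MHC region beside Tap1 and Tap2, and Psmb10 (chr8:105938343-105938642, minus strand) lies apart. Capitals mark TTCNNNGAA, the STAT-type motif, in Psmb8; CCAAT, read on the other strand, in Psmb9; and CACGTG, the E-box, in Psmb10. The window of Psmb9 shares 275 bases with that of Tap1, which is read in the opposite direction.
Psmb8: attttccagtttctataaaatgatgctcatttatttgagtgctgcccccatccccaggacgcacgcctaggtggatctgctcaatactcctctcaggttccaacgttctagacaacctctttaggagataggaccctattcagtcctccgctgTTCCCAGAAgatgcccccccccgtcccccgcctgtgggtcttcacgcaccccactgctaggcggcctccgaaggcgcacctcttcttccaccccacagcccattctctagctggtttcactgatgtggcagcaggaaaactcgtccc
Psmb9: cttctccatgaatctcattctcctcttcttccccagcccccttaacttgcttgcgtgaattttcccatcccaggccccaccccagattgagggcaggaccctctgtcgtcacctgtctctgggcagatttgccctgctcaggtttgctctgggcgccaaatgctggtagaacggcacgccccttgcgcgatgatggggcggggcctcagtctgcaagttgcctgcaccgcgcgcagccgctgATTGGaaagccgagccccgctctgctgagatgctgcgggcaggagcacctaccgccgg
Psmb10: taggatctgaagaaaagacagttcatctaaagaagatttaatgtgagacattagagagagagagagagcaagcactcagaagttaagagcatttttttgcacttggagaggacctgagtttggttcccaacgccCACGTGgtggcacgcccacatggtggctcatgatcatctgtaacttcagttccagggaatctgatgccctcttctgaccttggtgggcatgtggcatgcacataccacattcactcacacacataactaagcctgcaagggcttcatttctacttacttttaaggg

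Genes of peptide loading and class I control were a list chosen for context. Of 12 tested, 7 fell and 1 rose with OHT, where 18.2% of all genes were lower and 18.2% higher, and 4 were not called. The median log2 fold change was -0.26, beside 0.01 over all genes. Tap2, a subunit of the peptide transporter, was at 20, 20 and 20.7 RPKM in untreated cells and 13.9, 14.6 and 14.6 with OHT. Its groups were far apart, at -0.51 ± 0.05 (adjusted p = 4.87e-06). Erap1, which trims peptides in the endoplasmic reticulum, fell by 0.64 on the log2 scale (SE 0.06). Irf1 and Nlrc5, transcriptional activators of this gene group, were at -0.78 ± 0.11 and -1.89 ± 0.21. Nlrc5 had 1.09 to 1.41 RPKM without OHT and 0.2 to 0.425 with it. It passed the filter only through libraries where it was high, so no conclusion is drawn from its fall, which is among the 7. Irf1, Nlrc5, Tap1 (-0.41 ± 0.06) and Tapbp (-0.32 ± 0.07) are named outside the rule for naming genes and were chosen after their values were seen. The class I heavy chain genes H2-K1 (-0.11 ± 0.07) and H2-D1 (-0.10 ± 0.06), B2m (0.02 ± 0.07) and the chaperone gene Calr (0.16 ± 0.09) were not called. Pdia3, a chaperone of the loading complex, rose (0.21 ± 0.06), and its call was lost with the total as a covariate and without the libraries of lowest total.

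Of the 4 activators, 2 were called with OHT, and differences between them were not tested. Psme1 and Psme2 form a ring that is known to be induced by interferon, Psme3 forms a nuclear ring, and Psme4 is a single large chain. Psme2 (0.18 ± 0.06, adjusted p = 0.0228) and Psme3 (0.18 ± 0.06, adjusted p = 0.0407) were called higher, while Psme1 (-0.05 ± 0.06) and Psme4 (0.03 ± 0.05) were not called. The call of Psme2 was lost under 3 of 12 settings and 4 of 12 left-out libraries, and that of Psme3 under 5 and 9; with the total as a covariate and without the libraries of lowest total both were lost. The RPKM of Psme3 was 51.4, 51 and 52.2 in untreated cells and 60.7, 55.5 and 61.4 with OHT, where OHT replicate 2 was again the lowest of its group. With the total as a covariate Psme1 was called lower, at -0.14 ± 0.04.

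**Figure D4:**
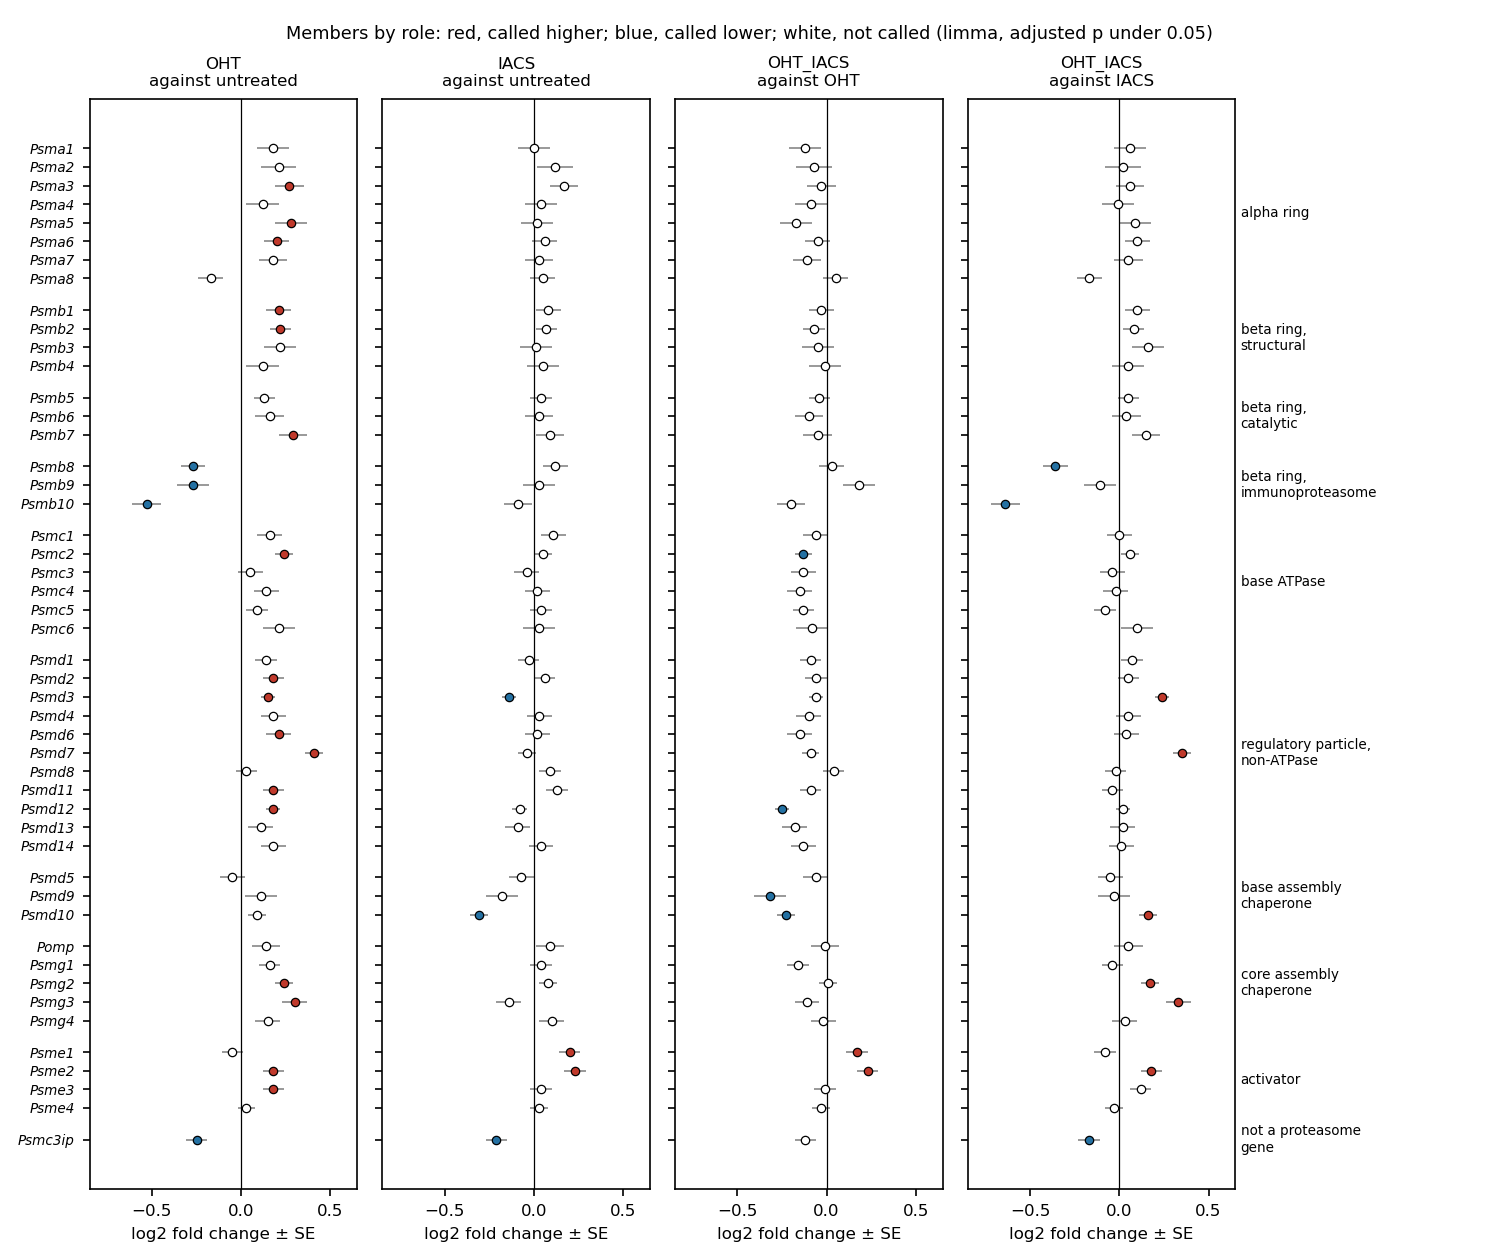
Log2 fold change (horizontal axis) with its SE of each of the 48 members, grouped by role, in 4 comparisons; red points were called higher and blue points lower by limma at an adjusted p under 0.05. With OHT the immunoproteasome subunits lie left of 0 and most other members right of it; the median over all members was 0.00 without the libraries of lowest total.

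IACS-010759 alone left most members uncalled. This comparison shares its untreated libraries with that of OHT. Of 48 members, 2 were higher (4.17%), where 8.15% of all genes were higher, and 3 were lower (6.25%), where 7.74% of all genes were lower; both shares lie under those of all genes. The median log2 fold change was 0.04, beside 0.00 over all genes, and -0.05 with the library total as a covariate. That covariate fit called 2 members higher and 5 lower, beside 864 and 728 of the 9745 genes tested. The 2 members that rose were the paired activators. The RPKM of Psme1 was 53.3, 53.3 and 54.6 in untreated cells and 64.7, 61.2 and 63.2 with IACS. Every IACS library was above every untreated library, at 0.20 ± 0.06 (adjusted p = 0.0299). The RPKM of Psme2 was 30.7, 29.7 and 30.7 in untreated cells and 37.3, 36 and 35.9 with IACS. Its groups were likewise apart, at 0.23 ± 0.06 (adjusted p = 0.0149). Both calls held under all 12 alternative settings; that of Psme2 was lost without untreated replicate 2, and that of Psme1 without any 1 of the untreated libraries, IACS replicate 1 or IACS replicate 3. Psme3 (0.04 ± 0.06) and Psme4 (0.03 ± 0.05) were not called.

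Psmd10, also called gankyrin, a chaperone that holds the ATPase Psmc4 during assembly of the base, fell with IACS. Its RPKM was 10.7, 10.9 and 10.2 in untreated cells, 11.2, 11.3 and 11.9 with OHT, 9.14, 9.25 and 7.77 with IACS, and 9.51, 9.95 and 9.67 with both. Every library with IACS lay below every library without it. The log2 fold change of IACS against untreated cells was -0.31 ± 0.05 (adjusted p = 0.00225), a fold of 0.807, and held under every alternative and without any 1 library. The lid subunit Psmd3 was also called lower, at -0.14 ± 0.04 (adjusted p = 0.0352); that call was lost under 4 of 12 settings and 4 of 12 left-out libraries. The other chaperones of the base, Psmd9 (-0.18 ± 0.09) and Psmd5 (-0.07 ± 0.07), and those of the core, Psmg1 (0.04), Psmg2 (0.08), Psmg3 (-0.14), Psmg4 (0.10) and Pomp (0.09), were not called. With the total as a covariate Psmd5 (-0.15 ± 0.04), Psma1 (-0.13 ± 0.04) and Psmb3 (-0.12 ± 0.04) were called lower and Psmc3ip was not. Not called either were the immunoproteasome subunits, at 0.12 ± 0.07 for Psmb8, 0.03 ± 0.09 for Psmb9 and -0.09 ± 0.08 for Psmb10. The RPKM of Psmb8 with IACS was 55.2, 54.6 and 54, above all untreated libraries, but the difference did not pass the test (adjusted p = 0.278).

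The promoters of Psmd10 (chrX:140956662-140956961, minus strand) and Psme1 (chr14:55578244-55578543, plus strand) are shown since these genes went opposite ways with the inhibitor. Capitals mark CCAAT, 3 times on either strand, in Psmd10, and GAAANNGAA, the core of the interferon-stimulated response element, read on the other strand, in Psme1.
Psmd10: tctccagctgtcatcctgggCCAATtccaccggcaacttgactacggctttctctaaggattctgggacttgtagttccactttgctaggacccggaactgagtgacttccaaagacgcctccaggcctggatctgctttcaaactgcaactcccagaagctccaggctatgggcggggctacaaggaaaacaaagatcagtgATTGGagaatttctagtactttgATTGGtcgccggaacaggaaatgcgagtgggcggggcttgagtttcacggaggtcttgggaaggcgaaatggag
Psme1: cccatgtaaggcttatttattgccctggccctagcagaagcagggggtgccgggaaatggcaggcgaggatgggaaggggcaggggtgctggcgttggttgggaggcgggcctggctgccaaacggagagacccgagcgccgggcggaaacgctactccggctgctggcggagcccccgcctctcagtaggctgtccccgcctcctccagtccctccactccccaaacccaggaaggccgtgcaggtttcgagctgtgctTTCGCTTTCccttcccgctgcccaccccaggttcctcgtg

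The regulator Nfe2l1 was higher with the inhibitor while its usual targets, the subunit genes, mostly were not. The RPKM of Nfe2l1 was 15.1, 15.8 and 15.8 in untreated cells, 13.8, 16.8 and 16.2 with OHT, 22.3, 22.8 and 22.1 with IACS, and 21.4, 23.1 and 22.1 with both. The 6 libraries with IACS were all above the 6 without it, and the log2 fold change was 0.49 ± 0.05 without OHT (adjusted p = 5.06e-05) and 0.51 ± 0.05 with it (adjusted p = 2.65e-05). Between OHT and untreated cells it was -0.02 ± 0.05, and between OHT_IACS and IACS -0.01 ± 0.05, neither called. Ngly1, the enzyme that deglycosylates the Nfe2l1 protein as part of its activation, rose by 0.40 ± 0.07 with IACS and by 0.38 ± 0.07 when IACS was added to OHT, and also with OHT alone (0.25 ± 0.07). Ddi2, the protease that cleaves that protein, was at -0.03 ± 0.11 and -0.18 ± 0.11 and was not called; it is named after its values were seen. Keap1 fell with IACS (-0.24 ± 0.05) and with OHT (-0.21 ± 0.05), and Nfe2l2, which Keap1 restrains, was at 0.32 ± 0.04 with OHT and -0.16 ± 0.04 with IACS, both called. The OHT calls of Ngly1 and Keap1 were lost with the total as a covariate and without the libraries of lowest total, and the IACS call of Nfe2l2 with RPKM as deposited and without 4 single libraries. Of the 12 regulators tested, 2 rose and 2 fell with IACS, where 8.15% of all genes were higher and 7.74% lower, and 3 rose and 1 fell with OHT, where 18.2% were higher and 18.2% lower. In OHT_IACS 3 rose and 3 fell against OHT, beside 11.9% and 11.8% of all genes, and 3 rose and 0 fell against IACS, beside 12.3% and 14.2%. Maff is among the 3 that rose with OHT and the 3 that fell against OHT. It had 1.71, 1.55 and 1.86 RPKM with OHT and 0.297 to 1.2 in the other libraries. It passed the filter only through the OHT libraries, where it was high, so no conclusion is drawn from its calls. Protein levels and processing of these factors were not measured.

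When IACS-010759 was added to OHT-primed cells, 2 members were higher (4.17%), where 11.9% of all genes were higher, and 4 were lower (8.33%), where 11.8% of all genes were lower. The median log2 fold change was -0.08, beside -0.01 over all genes. The median turned to 0.08 without the libraries of lowest total, which leaves only OHT replicate 2 in the OHT group. That fit takes the single library to vary like the others. With the total as a covariate 2 members were higher and 12 lower, beside 1321 and 1457 of the 9745 genes tested. Without OHT replicate 2 the fit called 1 member higher and 22 lower, beside 1457 and 1494 over all genes. Psme2 and Psme1 rose again. The RPKM of Psme2 was 36, 32.4 and 36.9 with OHT and 39.4, 42.4 and 41.5 with both agents. These groups did not overlap, at 0.23 ± 0.06 (adjusted p = 0.0119), a call that was lost only with no other than the compared groups in the fit. Psme1 was at 0.17 ± 0.06 (adjusted p = 0.0475), a call lost under 5 of 12 settings and 10 of 12 left-out libraries. Across the 4 conditions Psme2 was lowest in untreated cells (30.4 ± 0.595 RPKM, SD, n = 3), higher with OHT (35.1 ± 2.36) or IACS (36.4 ± 0.815) and highest with both (41.1 ± 1.56), while the libraries of OHT and of IACS alone overlapped.

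The 4 members that fell in OHT-primed cells were Psmd12, Psmd10, Psmd9 and Psmc2; the covariate fit also called 8 others lower. These were Psmc3 (-0.11), Psmc4 (-0.13) and Psmc5 (-0.12), which with Psmc2 make 4 of the 6 ATPases, Psmd6 (-0.14), Psmd13 (-0.17), the alpha subunits Psma1 (-0.10) and Psma5 (-0.15), and the core chaperone Psmg1 (-0.15). The RPKM of Psmd12, a lid subunit, was 34.3, 35.5 and 38.2 with OHT and 30.4, 31.4 and 29.1 with both. The groups were apart, at -0.25 ± 0.04 (adjusted p = 0.00155), and the call held under every alternative and without any 1 library. With both agents Psmd12 lay near the untreated level of 31.2, 31 and 31.2. Psmd10 fell in this background as well (-0.23 ± 0.05, adjusted p = 0.00876), a call lost without the libraries of lowest total. The RPKM of Psmd9, a chaperone of the base, was 9.04, 7.99 and 8.13 with OHT and 6.8, 6.44 and 6.77 with both. No library overlapped, at -0.32 ± 0.09 (adjusted p = 0.0193), and the call was lost without OHT replicate 1, OHT_IACS replicate 2 or the libraries of lowest total. Psmc2 was the fourth, at -0.13 ± 0.05 (adjusted p = 0.0492), and it is named after its values were seen. Of the settings, its call held only with a pseudocount of 1, a filter of at least 5 RPKM or the total as a covariate. Of the left-out libraries, it held only without OHT replicate 2 or IACS replicate 3. Voom (adjusted p = 0.0721) and the fit without the libraries of lowest total were among the settings that lost it. The immunoproteasome subunits were not called, at 0.03 ± 0.07 for Psmb8, 0.18 ± 0.09 for Psmb9 and -0.20 ± 0.08 for Psmb10. The core chaperones lay between -0.16 (Psmg1) and 0.01 (Psmg2), and Psme3 at -0.01 ± 0.06, none of them called.

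The contrast of OHT_IACS with IACS asks what OHT did while complex I was inhibited, where OHT itself and MycER activity cannot be told apart. It shares the IACS and OHT_IACS libraries with the comparisons above, so that values are set side by side and no overlap is computed. Of 48 members, 6 were higher (12.5%), where 12.3% of all genes were higher, and 3 were lower (6.25%), where 14.2% of all genes were lower. The median log2 fold change was 0.04, beside -0.00 over all genes, and -0.01 with the library total as a covariate. Without the libraries of lowest total, the median was 0.07, beside -0.01 over all genes. The totals of the 3 OHT_IACS libraries lay between those of the IACS libraries. The medians over the members were 0.06, 0.08 and 0.08 in the OHT_IACS libraries and 0.03, -0.01 and 0.08 in the IACS libraries, relative to the untreated mean.

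Psmd7, Psmg3 and Psmb10 again stood out in this background. The RPKM of Psmd7 was 22.9, 23.8 and 21.9 with IACS and 28.2, 29.5 and 29.6 with both agents. The groups were apart, at 0.35 ± 0.05 (adjusted p = 1.51e-04). The RPKM of Psmg3 was 40.1, 41.5 and 33.7 with IACS and 47.7, 49.5 and 46.2 with both. It rose by 0.33 ± 0.07 (adjusted p = 0.0042), with IACS replicate 3 below its group. The RPKM of Psmb10 was 37.2, 35.3 and 33.2 with IACS and 22.7, 25.2 and 19.8 with both. No library with both agents came near those with IACS alone, and the log2 fold change was -0.64 ± 0.08 (adjusted p = 4.49e-05), a fold of 0.642. The RPKM of Psmb8 was 42.6, 47.4 and 37.6 with both agents, below all 3 IACS libraries, at -0.36 ± 0.07 (adjusted p = 0.00234). Psmb9, at 20.6, 23.4 and 22.6 RPKM with both and 24.5, 24.7 and 23.3 with IACS, was at -0.11 ± 0.09 and was not called (adjusted p = 0.379). The lid subunit Psmd3 rose by 0.24 ± 0.04 (adjusted p = 0.00107). The calls of Psmd7, Psmd3, Psmg3, Psmb10 and Psmb8 held under every alternative and without any 1 library. Psme2 (0.18 ± 0.06) and Psmg2 (0.17 ± 0.05) were also called higher, and each call was lost without some of the libraries compared. Psmd10 was the sixth, at 0.16 ± 0.05 (adjusted p = 0.0419), named after its values were seen. Its call was lost by voom (adjusted p = 0.196) and without the libraries of lowest total. It was also lost without a filter, with RPKM as deposited, with a replicate block, without a trend and with only the compared groups. Of the left-out libraries, it held only without untreated replicate 3, OHT replicate 1, OHT replicate 2 or IACS replicate 2. Psme1 (-0.08), Psme3 (0.12), Psmg1 (-0.04), Psmg4 (0.03) and Pomp (0.05) were not called.

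**Figure D5:**
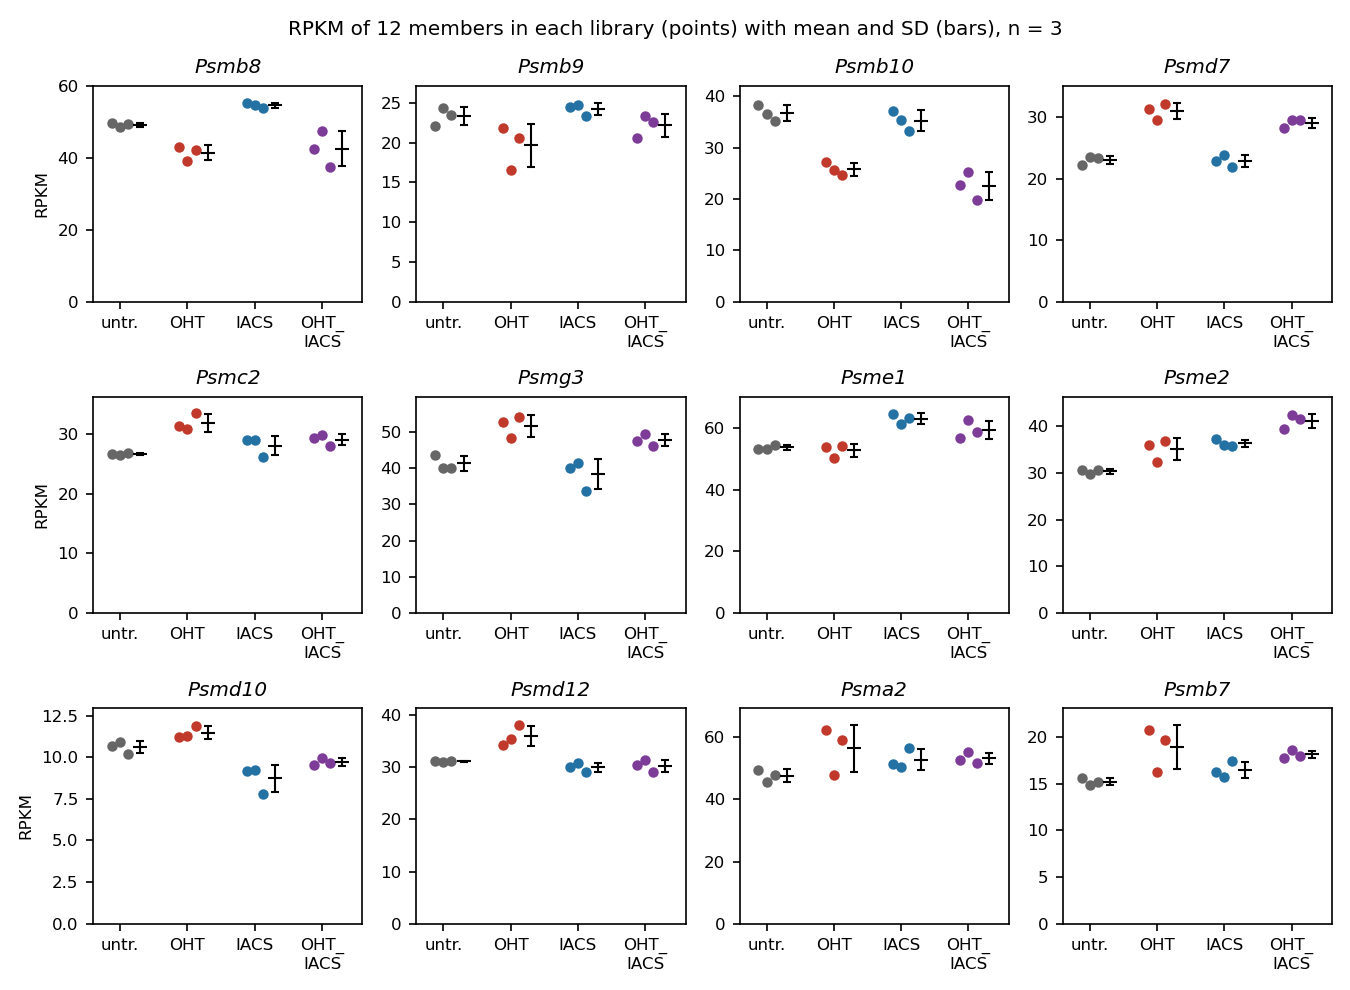
RPKM of 12 members in each library (points; vertical axis from 0) with the mean and SD of 3 libraries (bars) by condition. Psmb10 lies at 19.8 to 27.1 RPKM in the 6 libraries with OHT and at 33.2 to 38.3 in the 6 without it, while in Psma2 and Psmb7 a single OHT library lies close to the untreated ones.

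The ratios to the constitutive subunits differed between OHT_IACS and IACS by -0.79 for Psmb10 to Psmb7, -0.40 for Psmb8 to Psmb5 and -0.15 for Psmb9 to Psmb6, each with an exact permutation p of 0.10. Between IACS and untreated cells they differed by -0.17, 0.08 and -0.00 (exact p of 0.10, 0.10 and 1.00), and between OHT_IACS and OHT by -0.14, 0.08 and 0.28 (exact p of 0.50, 0.40 and 0.10). The log2 ratio of Psmb9 to Psmb6 was -1.49, -1.32 and -1.28 with both agents, above all 3 OHT libraries. None of the 12 tests passed after adjustment, and the smallest adjusted p was 0.13. Genes of peptide loading were lower here too: of 12, 7 fell and 0 rose by limma, beside 14.2% and 12.3% of all genes, with a median of -0.27. The 7 include Nlrc5, which passed the filter only through libraries without OHT. Erap1 (-0.70 ± 0.06) and Tap2 (-0.44 ± 0.05) had the smallest adjusted p. In the list's other comparisons, 2 rose and 0 fell with IACS alone, beside 8.15% and 7.74% of all genes, and Erap1 was at 0.34 ± 0.06. When IACS was added to OHT, 3 rose and 0 fell, beside 11.9% and 11.8%.

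The interaction asks whether the response to IACS-010759 differed between primed and nonprimed cells. By limma, 0 of 48 members were called higher, where 0.144% of all genes were, and 0 were called lower, where 0% of all genes were. At an unadjusted p under 0.05 there were 4 (Psmc2, Psmd11, Psmd12 and Psmg1, at -0.18, -0.22, -0.16 and -0.20), beside 1240 of the 9745 genes tested. Voom called 0 members. The median was -0.11, beside -0.01 over all genes, and it turned to 0.08 without the libraries of lowest total. A difference between the response of any member with and without OHT was therefore not shown, also where a member was called in 1 background and not in the other. Without OHT replicate 2, 1 member was called, beside 130 over all genes.

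Psmc3ip, the recombination factor that shares the name, fell with OHT (-0.25 ± 0.06, adjusted p = 0.00398) and with IACS (-0.21 ± 0.06, adjusted p = 0.0259). Its RPKM was 19.7, 19.3 and 20.6 in untreated cells, 17.6, 17 and 16.2 with OHT, 17.8, 18.9 and 16.1 with IACS, and 15, 16.4 and 15.3 with both. All treated libraries were below the untreated ones. The call with OHT held throughout, and that with IACS was lost under 3 of 12 settings and 4 of 12 left-out libraries. Against IACS alone, OHT_IACS was at -0.17 ± 0.06 (adjusted p = 0.0453), a call lost under 7 of 12 settings and 7 of 12 left-out libraries. Against OHT it was at -0.12 ± 0.06, not called.

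Genes around the proteasome were read from lists chosen for context. Of 16 tested proteins that associate with it, 4 rose and 1 fell with OHT (median 0.10); over all genes 18.2% were higher and 18.2% lower. The scaffold Ecpas, listed as AI314180, rose with OHT (0.33 ± 0.05), with IACS (0.24 ± 0.05) and in OHT_IACS against IACS (0.22 ± 0.05). Its RPKM was 11.5, 12.2 and 13 in untreated cells, 15.1, 15.7 and 16.3 with OHT, 14.9, 14.5 and 15 with IACS and 17.1, 17.4 and 17 with both, so that every treated library was above every untreated library. The ubiquitin ligase Ube3c rose with OHT as well (0.24 ± 0.05), and the call was lost without the libraries of lowest total. Uchl5, a deubiquitinase of the regulatory particle, fell when IACS was added to OHT (-0.21 ± 0.06), a call lost under 2 of 12 settings and 2 of 12 left-out libraries. Paaf1 is not in the table under that name, and Sem1 is listed as Shfm1 and was not called. With IACS, 1 of the 16 rose and 0 fell by limma, beside 8.15% and 7.74% of all genes. In OHT_IACS against OHT 0 rose and 1 fell, beside 11.9% and 11.8%, and against IACS 3 rose and 0 fell, beside 12.3% and 14.2%.

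Upstream of the proteasome, Uba6, a ubiquitin-activating enzyme, rose with OHT. Its RPKM was 5.82, 6.17 and 5.71 in untreated cells and 7.89, 9.04 and 9.03 with OHT, a log2 fold change of 0.52 ± 0.07 (adjusted p = 5.21e-05). With OHT it was the only gene called of 6 for ubiquitin and its activating enzymes, beside 18.2% higher and 18.2% lower over all genes. Ubb, Rps27a and Uba1 were at -0.03 to 0.21. In OHT_IACS, Uba6 was at 0.39 ± 0.07 against IACS and -0.23 ± 0.07 against OHT, both called. The call against OHT was lost under 2 of 12 settings and 3 of 12 left-out libraries. Of 10 genes for p97 and its cofactors, 4 rose and 1 fell with OHT, beside 18.2% and 18.2% of all genes, with a median of 0.05; Faf2 was at -0.25 ± 0.06 and Plaa at 0.15 ± 0.05, and both calls were lost with the total as a covariate and without the libraries of lowest total, that of Plaa also with only the compared groups and without 4 single libraries. The cofactor Faf1 rose with IACS (0.31 ± 0.05), and Ufd1, listed as Ufd1l, fell when IACS was added to OHT (-0.42 ± 0.07). Among large complexes of like abundance, 1 of 8 CCT chaperonin subunits (Cct8, 0.30 ± 0.09) and 2 of 9 subunits of the COP9 signalosome, a relative of the lid (Cops8 at 0.23 ± 0.06 and Cops2 at 0.18 ± 0.06), were higher with OHT. By limma 0 of either were lower, beside 18.2% higher and 18.2% lower over all genes. When IACS was added to OHT, 2 of the 9 COP9 subunits were lower, Cops4 (-0.26 ± 0.06) and Cops5 (-0.15 ± 0.05), beside 11.8% of all genes. The call of Cops5 was lost under 8 of 12 settings and 11 of 12 left-out libraries. The CCT median was 0.19 with OHT, near the 0.16 of the proteasome members. The calls of Cct8, Cops8 and Cops2 were lost with the total as a covariate and without the libraries of lowest total. In all, that of Cops2 was lost under 6 of 12 settings and 5 of 12 left-out libraries, and that of Cct8 without 4 single libraries.

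The counts with OHT were also set beside those of genes of like read density. Among genes of at least 0.4 reads per base, 31% of the 29 members were higher and 3.45% were lower, beside 23.1% and 6.21% of the 1191 genes of that density, with medians of 0.18 and 0.13. Between 0.2 and 0.4 reads per base, 53.8% of 13 members were higher and 23.1% lower, beside 27.8% and 14.9% of 1800 genes. Those 13 hold Psmd7, Psmc2, Psmb10 and Psmb9. The part of read density in the counts was not tested.

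Promoters in RefSeq were found for 40 of the 48 members; those of Psma8, Psmb1, Psmb2, Psmb7, Psmc3, Psmd3, Psmd7 and Psmg2 were missing. Each window of 300 bases was searched on both strands for 6 motifs, with no overlapping matches in the 7 promoters printed. The ETS-type letters CCGGAAG were found in 16 members (40%), beside 9.93% of the 27025 genes with a promoter. A gene was counted if any of its promoters held the letters. The 16 include Psmg3, Psmd12, Psmc2 and Psmd11. GAAANNGAA was found in 8 members (20%, beside 9.76%), CCAAT in 14 (35%, beside 41.1%) and TGACNNNGC in 6 (15%, beside 14%). CACGTG was found in 4 (10%, beside 8.09%), which are Psma4, Psmb10, Psmd9 and Psme3, and TTCNNNGAA in 3 (7.5%, beside 9.55%). These are descriptions with no test, and no match says only that the letters are not in the window.

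Some members share bases with other genes, which limits what a read on them can be assigned to. In GENCODE vM21, 3 members share exon bases with another gene on the same strand (Psmb5 with Mir686, Psmd1 with Gm21972 and Psmg3 with Gm26938, over 280 bases), and 12 with a gene on the opposite strand. Psmb9 shares 212 bases with Tap1, Psmb8 259 with Gm20496 and Psmd9 1849 with Gm26745. Pseudogenes are named for Psmb5, Psmb6 and Psmb7. The libraries were strand-marked, but the sources used here do not give whether the strand was used in counting.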

How the data were processed

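The authors deposited RPKM per gene for 12 libraries. The submitters' processing notes name TopHat2 2.0.8, TopHat, SAMtools, featureCounts 1.4.5-p1, DESeq2 and mm9. The 6 deposited columns of log2 fold changes and adjusted p-values were not used. Reads, gene lengths and totals were recovered from the steps between RPKM values; all 15451 genes above 0 came out as whole reads (relative tolerance 1e-06). The recovery and the fit were tested on simulated data.

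Each library was divided by the median, over genes, of its ratio to a reference library of geometric means. Genes with at least 1 RPKM in at least 3 libraries (9745) entered 1 fit of 12 libraries, limma 3.58.1 on log2(RPKM + 0.1) in R 4.3.3, with a mean-variance trend, two-sided, with Benjamini-Hochberg adjustment over all genes in each of 5 comparisons and a threshold of 0.05. A gene past the threshold is called. Subunit ratios had exact permutation tests over libraries (scipy 1.17.1, Python 3.11.15). Full statistics were given for up to 3 called members with the smallest adjusted p in each direction, Psmb8 to Psmb10, Psme1 to Psme3, Psmg1 to Psmg4 and Pomp; for up to 2 called genes per direction of each context list; and for Nfe2l1 and the treatment checks. Others are named as chosen after values were seen or for their levels. Members and lists were chosen with earlier results of these data known. Promoters came from RefSeq and exons from GENCODE vM21.

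Alternatives were other pseudocounts, filters and scalings, a replicate block, no trend, only the compared groups, the log2 library total as a covariate, voom, each library left out, and, chosen after seeing the data, the 3 libraries of lowest total left out.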

Additional observations from a re-analysis of the deposited data

How the results depend on the processing

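With OHT against untreated cells, 21 members were called. RPKM as deposited gave 31 (27 higher) and voom 28 (24 higher). Only the compared groups in the fit gave 13, the log2 library total as a covariate 11, and leaving out the 3 libraries of lowest total, chosen after seeing the data, 11. The median log2 fold change of 0.16 went to 0.08 by quantile normalization, 0.03 with the covariate and 0.00 without those libraries. Leaving out single libraries gave 9 (untreated replicate 3) to 39 (OHT replicate 2) called members, beside 2650 and 4123 calls over all genes. Leaving out untreated replicate 2 gave 10, beside 2715. Leaving out OHT replicate 1 or OHT replicate 3 gave 11 each, beside 3079 and 2678. The median ran from 0.11 without OHT replicate 1 to 0.23 without OHT replicate 2. Over all genes, 3546 calls became 2351 with the covariate and 2230 without the libraries of lowest total.

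With IACS, 5 members became 3 with RPKM as deposited, 2 without untreated replicate 1, untreated replicate 3 or IACS replicate 1, 3 without untreated replicate 2 or IACS replicate 3, and 5 without OHT replicate 1. The median went from 0.04 to -0.05 with the covariate. All-gene calls of 1548 became 951 without untreated replicate 1, 998 without untreated replicate 2, 1026 without IACS replicate 3 and 1809 when OHT replicate 1 was left out.

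In OHT_IACS against OHT, 6 members became 3 with only the compared groups, 14 with the covariate (2 higher, 12 lower), 23 without OHT replicate 2 (1 higher, 22 lower) and 4 without untreated replicate 1. The median of -0.08 turned to 0.08 without the libraries of lowest total and ran from -0.15 without OHT replicate 2 to -0.03 without OHT replicate 1. All-gene calls of 2310 became 1331 without the libraries of lowest total, 1524 without OHT_IACS replicate 3 and 2951 without OHT replicate 2. Against IACS, 9 members became 16 without the libraries of lowest total, 5 without IACS replicate 1 and 9 without OHT replicate 1.

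The interaction called 0 members, with 0 without untreated replicate 1 and 1 without OHT replicate 2. Its median of -0.11 went to -0.03 by quantile normalization, -0.01 with the covariate and 0.08 without the libraries of lowest total, and from -0.18 without OHT replicate 2 to -0.05 without OHT replicate 1. All-gene calls of 14 became 7 with no filter, 5 with RPKM as deposited, 34 by quantile normalization, 5 with the covariate, 25 by voom and 5 without the libraries of lowest total. They were 130 without OHT replicate 2, 3 without OHT replicate 3 or OHT_IACS replicate 3, 4 without untreated replicate 1 or OHT_IACS replicate 1, 6 without untreated replicate 2 or 3, 7 without IACS replicate 2 and 8 without OHT replicate 1, IACS replicate 1 or IACS replicate 3. The cause of these shifts was not tested.

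With a replicate block, 26 members were called with OHT, 5 with IACS, 6 in OHT_IACS against OHT and 7 against IACS, and the interaction called 7 genes and 0 members. Deviations of libraries with the same number had correlations of -0.172 to 0.104 (median -0.035, 18 pairs), so the number showed no pairing.

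Of the 28 member calls that the naming rule gave full statistics, 13 held under every setting and left-out library, 17 under every setting, and 0 were reversed. The calls of Psmc2 in OHT_IACS against OHT and of Psmd10 in OHT_IACS against IACS, named after their values were seen, are not counted there.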
